A study of Mus musculus with 12 samples.

Results

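The striatum of SUMO-KO mice, which carry no huntingtin knock-in, was compared with that of WT mice. The comparison takes 6 of the 12 libraries of the series, 3 SUMO-KO and 3 WT, chosen by their labelled genotype, and covers all 53465 genes of the count table. SUMO-KO libraries are labelled as coming from a SUMO knockout mouse and WT libraries as wild-type, both as striatal cells on the C57/BL6 background. The other 6 libraries come from a neo-deleted Q175 knock-in mouse, in which Htt carries an expanded CAG repeat. They serve as a separate background for the same loss: 3 from Q175HD/SUMO-KO mice and 3 from Q175HD mice. They also enter the fit, in which all 12 libraries share the estimate of spread behind every SUMO-KO against WT p-value. The allele of the knockout, the age and the sex of the animals are not given in the labels. Whether the replicates of a genotype are different animals is not stated, so every p-value here reflects the variation among these libraries, some of which may be technical.

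SUMO proteins are small ubiquitin-like modifiers that are joined to lysines of target proteins by an activating enzyme (Sae1 with Uba2), a conjugating enzyme and several ligases. Proteases of the Senp family remove them. Among the SUMO proteins of mammals, SUMO-2 and SUMO-3 are nearly alike and can form chains. In striatal neurons huntingtin is a known SUMO target, and Rhes (gene Rasd2), a striatal GTPase, is known to promote its modification.

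The count table held 9379594, 10120161 and 14714746 reads for SUMO-KO libraries 1, 2 and 3, against 12213078, 11994900 and 13926488 reads for WT libraries 1, 2 and 3. Of the 53465 genes, 17796 had enough reads to be tested. Markers of striatal projection neurons were present in all 6 libraries: the 42 genes of that list summed to 21800, 21210 and 24260 CPM, the reads of a gene scaled to library size, in SUMO-KO, against 20150, 21220 and 24210 CPM in WT. SUMO-KO library 3 stood apart from the others of its genotype. Its Spearman correlation over the genes tested was 0.973 and 0.978 with SUMO-KO 1 and 2, and 0.983, 0.984 and 0.992 with WT 1, 2 and 3. SUMO-KO 1 and 2 correlated at 0.987 with each other. A chi-square of the counts, divided by its degrees of freedom, came to 22.4 for SUMO-KO 3 with either of the other SUMO-KO libraries. It was 8.71 for SUMO-KO 1 with 2. Within WT it was 11.7 for WT 1 with 2, 18.7 for WT 1 with 3 and 8.44 for WT 2 with 3. This value grows with read depth, which was highest in SUMO-KO 3. SUMO-KO 3 shared the reads of Gm28411, given further on, with the other SUMO-KO libraries, where every WT library had 0. SUMO-KO and WT each held 1 library with high Xist, a marker of female cells: replicate 2 had 19854 reads in SUMO-KO and 18092 in WT. The knock-in pair was not balanced in this way, since Q175HD/SUMO-KO 2 had 18386 reads of Xist and the Q175HD libraries had 21, 17 and 2.

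Sumo2 and Sumo3, the modifiers that can form chains, gave no call. In TPM, the authors' deposited values scaled by gene length, which allow genes to be compared, Sumo2 stood at 22.3, 18.6 and 22.2 in SUMO-KO, against 21.6, 24.8 and 23.2 in WT. Sumo3 stood at 90.9, 83.9 and 84.1 TPM in SUMO-KO, against 66.4, 84.8 and 103.0 TPM in WT. Sumo3 lay above Sumo2 in all 6 libraries. The groups overlapped for both genes, whose log2 fold changes were -0.09 (SE 0.12) for Sumo2 and 0.07 (SE 0.13) for Sumo3. Htt measured 302.2, 263.3 and 263.2 CPM in SUMO-KO, against 284.5, 249.1 and 269.8 CPM in WT. These groups overlapped too, with a log2 fold change of 0.04 (SE 0.11).

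**Figure D1:**
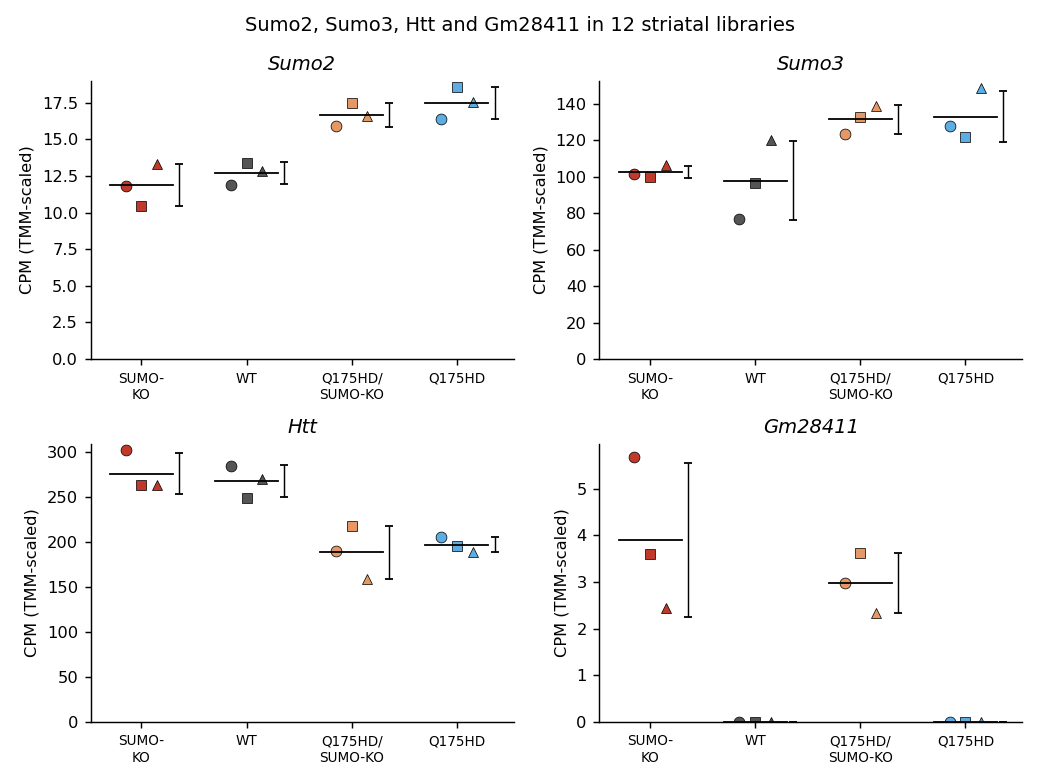
Library-size-scaled CPM of Sumo2, Sumo3, Htt and Gm28411 in each of the 12 libraries, by genotype. Circles, squares and triangles are replicates 1, 2 and 3, horizontal lines are group means and bars are 1 SD (n = 3 each). Sumo2 lies between 10.5 and 13.3 CPM in SUMO-KO and between 11.9 and 13.4 CPM in WT, and Gm28411 is at 0 in every WT and Q175HD library.

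The list of SUMO modifiers and conjugation enzymes held 21 tested genes with a median log2 fold change of 0.04, beside 0.02 over all genes tested. Of these, 1 was higher and 3 were lower at an unadjusted p under 0.05, Zmiz1 and Zmiz2 among the lower. Over all genes tested, that limit was passed by 7.44% as higher and 6.02% as lower. The ligase gene Pias2 measured 98.7, 103.3 and 90.2 CPM in SUMO-KO, against 85.6, 87.9 and 84.3 CPM in WT (log2 fold change 0.18, adjusted p = 0.343). The groups were apart, with a fold change of 1.13. The ligase-related genes Zmiz1 and Zmiz2 had log2 fold changes of -0.44 and -0.32, with overlapping groups. For the core enzymes the log2 fold changes were 0.04 for Uba2 and -0.00 for Sae1, and for the ligase gene Ranbp2 it was 0.21. All 3 had overlapping groups. Rasd2 had a log2 fold change of -0.12 (SE 0.27).

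The 12 SUMO proteases and SUMO-targeted ubiquitin ligases had a median log2 fold change of 0.12, with 2 higher and 0 lower at an unadjusted p under 0.05. These were Uspl1 and Senp7, which both cleave SUMO. Uspl1 measured 49.9, 49.7 and 40.8 CPM in SUMO-KO, against 38.9, 39.2 and 39.9 CPM in WT (adjusted p = 0.318). Senp7 measured 84.1, 74.1 and 61.8 CPM in SUMO-KO, against 54.2, 61.7 and 65.0 CPM in WT (adjusted p = 0.327). In both genes SUMO-KO 3 lay close to the WT values or among them. Among 31 known SUMO substrates and proteins of PML nuclear bodies the median was -0.06, with 1 higher and 4 lower at that limit. Rangap1, the first SUMO target described, had a log2 fold change of -0.30 and Pml one of -0.03, both with overlapping groups.

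Gm28411 rose in SUMO-KO and was not seen in WT. This non-coding gene on the minus strand of chr1:59532991-59549521 (GRCm38, GENCODE M21) had 54, 36 and 34 reads in SUMO-KO, against 0, 0 and 0 in WT. The groups did not overlap. With the WT group set at its floor, 3 counts in all, the level in SUMO-KO was at least 46.1-fold higher (fitted log2 fold change 8.64, adjusted p = 0.0158, edgeR quasi-likelihood test with Benjamini-Hochberg adjustment over all genes tested). The same gene had 37, 43 and 39 reads in Q175HD/SUMO-KO, against 0, 0 and 0 in Q175HD (adjusted p = 0.0178). Its adjusted p was 0.0588 without WT 2 and 0.0823 without SUMO-KO 2. None of the 50-base windows of its 2 annotated transcripts occur in another annotated gene. Gm973, a coding gene on the opposite strand whose span covers Gm28411, had 117, 162 and 134 reads in SUMO-KO, against 188, 153 and 147 in WT (log2 fold change -0.06, SE 0.19). These groups overlapped. The kit marks strand, but the setting used for counting is not given in the sources used here.

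Such presence in SUMO-KO with absence from WT was rare. 1700122D07Rik, which lies within the span of Gm28411 on its strand, had 10, 4 and 4 reads in SUMO-KO, against 0, 0 and 0 in WT, too few to be tested. All SUMO-KO libraries lay above all WT libraries. Of 32813 genes with a read in some library, Gm28411 and 1700122D07Rik were the only 2 with at least 3 reads in every SUMO-KO library and none in WT. The reverse held for 2 genes, Olfr550 and Gm9269, the second of which also had reads in Q175HD/SUMO-KO and Q175HD. Olfr550, an olfactory receptor gene, had 0, 0 and 0 reads in SUMO-KO, against 7, 5 and 4 in WT, and 0 reads in all Q175HD/SUMO-KO and Q175HD libraries.

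Some other genes of chromosome 1, chosen after their values were seen, had groups that were apart in SUMO-KO and WT. Zdbf2, an imprinted gene, measured 93.5, 102.3 and 102.7 CPM in SUMO-KO, against 80.3, 66.6 and 75.9 CPM in WT (log2 fold change 0.42, adjusted p = 0.169). Kansl1l measured 39.4, 48.9 and 38.5 CPM in SUMO-KO, against 24.3, 29.8 and 29.0 CPM in WT (log2 fold change 0.61, adjusted p = 0.0851). Aox4, an aldehyde oxidase gene, measured 2.21, 1.60 and 2.44 CPM in SUMO-KO, against 0.754, 0.419 and 0.596 CPM in WT (log2 fold change 1.81, adjusted p = 0.19). None of the 3 was called. In Q175HD/SUMO-KO against Q175HD, which share no library with this comparison, the log2 fold changes were 0.46 for Zdbf2, 0.50 for Kansl1l and 2.87 for Aox4.

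Over all 17796 genes tested, 8 passed an adjusted p under 0.05, or 0.045%. Rian and Gm28411 rose, 0.0112% of genes. On the other side 6 genes fell, or 0.0337%, among them Ctgf, Cplx3, Ighm, Myl4 and Gm10635. At an unadjusted p under 0.05 there were 2395 genes, of which 1324 were higher and 1071 lower. The 3 SUMO-KO libraries lay above the 3 WT libraries in 7.59% of genes and below them in 6.54%. The authors' deposited table of this comparison holds 245 genes at an adjusted p under 0.05 of 16201 with such a value, or 1.51%, with 62 higher (0.383%) and 183 lower (1.13%). They include 7 of the 8 genes called here. The other, Gm10635, has a log2 fold change of -5.46 there but no adjusted p. All 245 had an unadjusted edgeR p under 0.05 here, with the same sign. The number called depended on single libraries. Without SUMO-KO 3 it was 782 higher, or 4.3% of 18181 tested, and 640 lower, or 3.52%. Without WT 3 it was 14 higher (0.0771%) and 123 lower (0.677%). Without WT 1 it was 1 higher (0.00546%) and 2 lower (0.0109%), without WT 2 it was 0 and 0, without SUMO-KO 1 it was 2 and 2, and without SUMO-KO 2 it was 0 and 1. No gene was called when the fit used the 6 libraries alone.

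**Figure D2:**
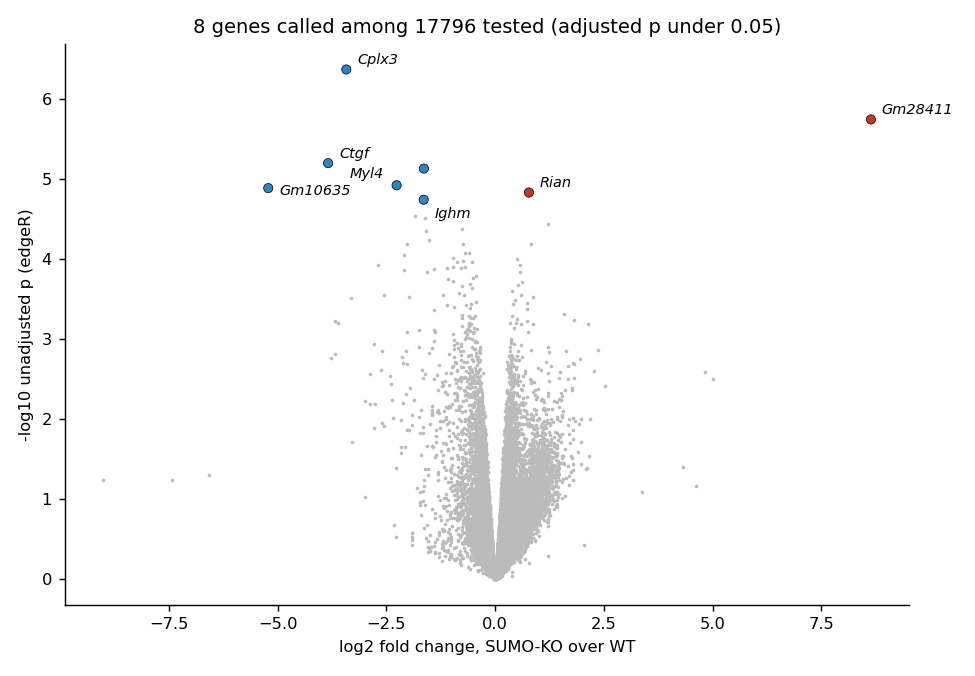
Each point is 1 of the 17796 genes tested, with the log2 fold change of SUMO-KO over WT on the x axis and -log10 of the unadjusted edgeR p on the y axis. The 8 genes with an adjusted p under 0.05 are drawn in colour: Rian and Gm28411 are higher in SUMO-KO, and 6 are lower, with names for those described.

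Among the genes that fell, Ctgf and Cplx3 are known marks of the deepest layer of the cortex. Ctgf, a secreted matrix-associated protein, measured 0.948, 2.59 and 3.15 CPM in SUMO-KO, against 50.2, 31.8 and 16.9 CPM in WT. The groups were far apart, and within WT replicate 1 was highest and replicate 3 lowest. The log2 fold change was -3.84 (SE 0.48, adjusted p = 0.0326). The adjusted p was 0.132 without WT 2, 0.125 without SUMO-KO 1 and 0.231 without SUMO-KO 2. Cplx3, a complexin that binds the vesicle fusion complex, measured 0.737, 1.90 and 1.43 CPM in SUMO-KO, against 19.3, 16.9 and 8.05 CPM in WT. The groups did not overlap, and the log2 fold change was -3.42 (SE 0.38, adjusted p = 0.0075, or 0.0573 without WT 2).

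Ighm, the immunoglobulin mu heavy chain gene, measured 5.48, 7.68 and 8.53 CPM in SUMO-KO, against 24.9, 28.9 and 14.4 CPM in WT. The groups were apart, with WT 3 nearest to SUMO-KO (log2 fold change -1.64, SE 0.25, adjusted p = 0.0399). Myl4, a myosin light chain gene, measured 0.842, 0.499 and 0.860 CPM in SUMO-KO, against 3.43, 4.78 and 2.61 CPM in WT (log2 fold change -2.27, SE 0.34, adjusted p = 0.0371). Gm10635, a predicted gene, measured 0.105, 0.00 and 0.0716 CPM in SUMO-KO, against 4.19, 2.60 and 0.969 CPM in WT (adjusted p = 0.0371). Myl4 and Gm10635 fall outside the rule for naming genes, since their mean count was under 50, and are given because they were called. For these 3 genes the adjusted p without 1 library lay between 0.143 and 0.256 wherever WT 1, WT 2, SUMO-KO 1 or SUMO-KO 2 was left out. For Ighm it was 0.0608 with a replicate block, 0.0554 without robust estimation and 0.0633 with a mean count of at least 50.

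Among the 4 genotypes, Ctgf, Cplx3, Ighm, Myl4 and Gm10635 were high in WT alone, with every WT library above the other 9. Ctgf averaged 3.59 ± 1.52 CPM in Q175HD/SUMO-KO and 2.28 ± 0.597 CPM in Q175HD (SD, n = 3 each). Cplx3 averaged 0.745 ± 0.26 CPM in Q175HD/SUMO-KO and 1.44 ± 0.23 CPM in Q175HD. Ighm averaged 6.02 ± 1.01 CPM in Q175HD/SUMO-KO and 8.13 ± 1.44 CPM in Q175HD. In Q175HD/SUMO-KO against Q175HD the log2 fold changes were 0.64 for Ctgf (unadjusted p = 0.218), 0.48 for Myl4 (0.157), 1.35 for Gm10635 (0.11), -0.43 for Ighm (0.118) and -0.95 for Cplx3 (0.0447). None was called there.

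The list of cortical excitatory neuron markers, written with earlier results of these data known, itself holds Ctgf and Cplx3. Of 25 tested, those 2 fell, and the median log2 fold change was -0.83. It was negative in 20, beside 45.9% of all genes tested, and the highest was 0.86. At an unadjusted p under 0.05, 12 were lower, or 48.0%, and 0 higher, beside 6.02% and 7.44% over all genes tested. Slc17a7, which loads glutamate into vesicles of cortical neurons, measured 62.7, 23.4 and 35.2 CPM in SUMO-KO, against 384.5, 244.8 and 106.4 CPM in WT (log2 fold change -2.60, adjusted p = 0.257). Tbr1, a transcription factor of deep cortical layers, measured 5.90, 4.19 and 7.02 CPM in SUMO-KO, against 61.6, 43.3 and 12.8 CPM in WT (log2 fold change -2.77, adjusted p = 0.237). In both, WT 1 was highest, WT 3 lowest among WT, and all SUMO-KO libraries lower still.

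The list summed to 1173, 1159 and 1276 CPM in SUMO-KO, against 2064, 1677 and 1365 CPM in WT, and to between 1078 and 1180 CPM in the 6 knock-in libraries. In bulk RNA, fewer cells of a type and less RNA per cell cannot be told apart. WT 1 and WT 2, in which this list summed highest, were also left out, so that WT 3 was the only WT library. The list median was then -0.21, and the log2 fold changes were -2.90 for Ctgf, -2.56 for Cplx3 and -0.99 for Ighm. A smaller difference in the list follows from that choice of libraries. The part of cortical RNA in the called genes was not tested.

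**Figure D3:**
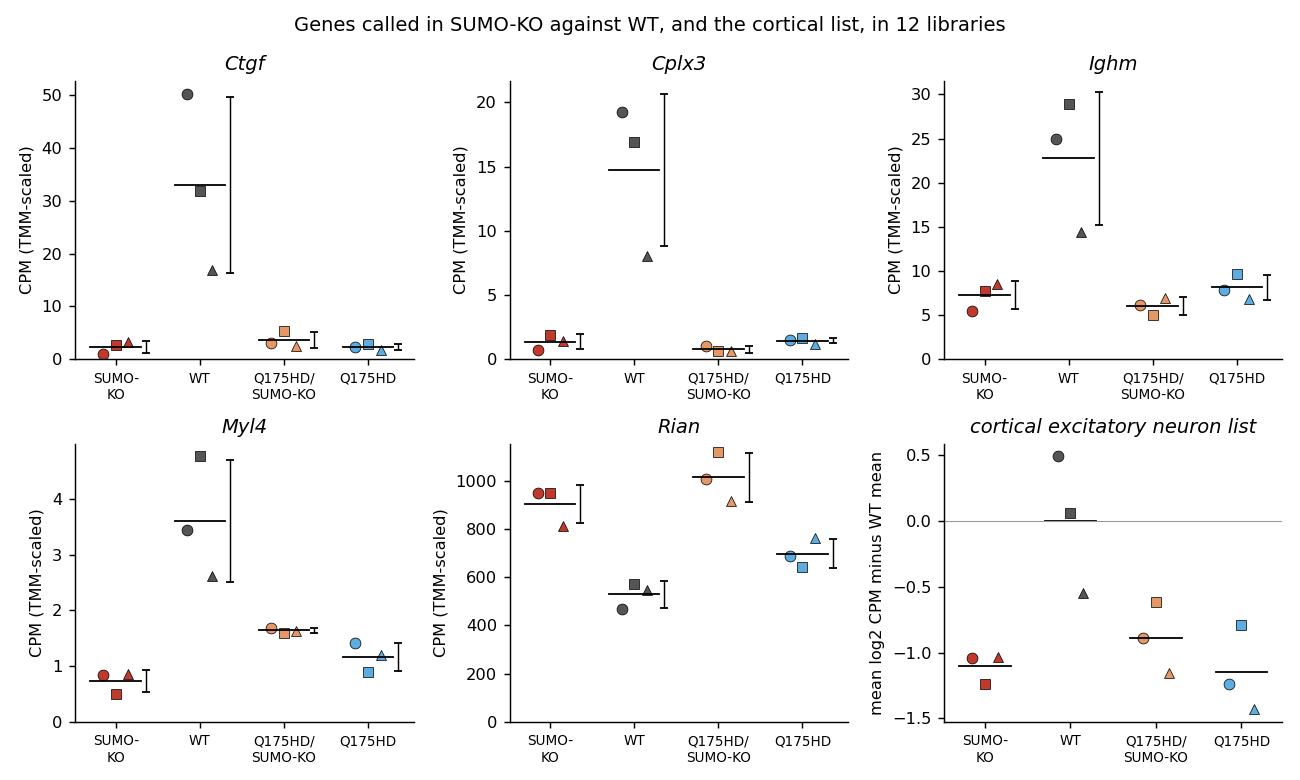
CPM of 5 of the called genes and the mean of the cortical excitatory neuron list (log2 CPM minus the WT mean of each gene) in each of the 12 libraries. Circles, squares and triangles are replicates 1, 2 and 3, lines are means and bars are 1 SD (n = 3 each; no bar for the list). Ctgf, Cplx3, Ighm and Myl4 are high in WT and low in the other 3 genotypes, while Rian is higher in SUMO-KO than in WT and in Q175HD/SUMO-KO than in Q175HD.

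Rian was the other gene that rose. It is a maternally expressed, imprinted non-coding RNA of the Dlk1-Dio3 domain that carries small nucleolar RNAs in its introns. It measured 950.0, 951.6 and 814.6 CPM in SUMO-KO, against 466.5, 571.3 and 547.9 CPM in WT. The groups were well apart, and SUMO-KO 3 was also above every WT library. The log2 fold change was 0.78 (SE 0.12, adjusted p = 0.0371), a fold change of 1.71. The adjusted p lay between 0.143 and 0.267 without WT 1, WT 2, SUMO-KO 1 or SUMO-KO 2, with log2 fold changes between 0.69 and 0.84 when any 1 library was left out. It was 0.0531 with a replicate block, 0.0512 without robust estimation and 0.0633 with a mean count of at least 50. The knock-in pair, Q175HD/SUMO-KO against Q175HD, had a log2 fold change of 0.54 (unadjusted p = 4.54e-04).

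Its neighbours in the same transcribed stretch leaned the same way. At chr12:109541001-109749460, on the strand of Rian, 57 genes were tested between the start of Meg3 and the end of Mirg, 43 of them microRNA genes. All 57 had a positive log2 fold change, with a median of 0.87, and 21 had an unadjusted p under 0.05. Over all genes tested, 45.9% had a negative log2 fold change and 13.5% passed that limit. The 43 microRNA genes had a median of 1.02, beside 0.79 for the 52 microRNA genes tested elsewhere. Rian was the only call among the 57. These genes share long precursor transcripts, so they are not separate measurements. Meg3 measured 3491, 2499 and 2070 CPM in SUMO-KO, against 1658, 2049 and 1917 CPM in WT (log2 fold change 0.52, adjusted p = 0.349). Mirg, the host of many of the microRNAs, measured 105.0, 92.5 and 48.9 CPM in SUMO-KO, against 38.9, 50.8 and 45.4 CPM in WT (log2 fold change 0.86, adjusted p = 0.267). For Mirg, SUMO-KO 1 and 2 were high and SUMO-KO 3 lay among WT. In Q175HD/SUMO-KO against Q175HD, 54 of the 57 were positive, with a median of 0.63.

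Some other classes of non-coding RNA also had positive medians, but they did not share 1 order of libraries. Genes annotated as transcripts yet to be experimentally settled (TEC) took 1.11%, 0.939% and 0.394% of reads in SUMO-KO, against 0.4%, 0.608% and 0.42% in WT. SUMO-KO 1 and 2 were the highest of the 6 and SUMO-KO 3 the lowest. Of 1363 TEC genes tested, 256 were higher at an unadjusted p under 0.05, or 18.8%, and 2 were lower, with a median log2 fold change of 0.72. Over all genes tested, 7.44% were higher and 6.02% lower at that limit. Sense-intronic genes, with a median of 0.67 over 183 tested, took 0.137%, 0.118% and 0.0671% of reads in SUMO-KO, against 0.0706%, 0.0935% and 0.0707% in WT, the same order within SUMO-KO. MicroRNA genes took 0.0568%, 0.0938% and 0.231% of reads in SUMO-KO, against 0.13%, 0.0301% and 0.0208% in WT, with SUMO-KO 3 highest, and the 52 tested outside the Rian stretch had a median of 0.79. SnRNA genes took 0.164%, 0.0932% and 0.0747% of reads in SUMO-KO, against 0.0995%, 0.146% and 0.144% in WT, so that SUMO-KO 2 and 3 lay below every WT library. Among 14199 protein-coding genes, 847 were higher at that limit, or 5.97%, and 1026 lower, with a median of -0.01. The TEC median in the knock-in pair was 0.34. The share of these classes in the level of Rian was not tested.

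Scarna2, a small RNA of Cajal bodies, was close to a call. It measured 230.4, 366.9 and 320.1 CPM in SUMO-KO, against 152.7, 139.3 and 105.7 CPM in WT. The groups were apart, with a log2 fold change of 1.21 (SE 0.19, adjusted p = 0.0578) and 1.06 between Q175HD/SUMO-KO and Q175HD. The 68 snoRNA genes tested had a median of 0.13. At an unadjusted p under 0.05, 8 were higher, or 11.8%, and 0 lower, beside 7.44% and 6.02% over all genes tested. In this gene too SUMO-KO 3 was above every WT library.

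The coding genes with the next lowest p on the higher side missed the threshold. Upf3b, a factor of nonsense-mediated RNA decay, measured 25.9, 25.9 and 24.0 CPM in SUMO-KO, against 18.3, 18.1 and 17.3 CPM in WT (log2 fold change 0.50, SE 0.09, adjusted p = 0.0725). Man1a, a mannosidase of glycoprotein processing, measured 101.1, 89.5 and 108.7 CPM in SUMO-KO, against 68.4, 57.1 and 76.1 CPM in WT (log2 fold change 0.57, adjusted p = 0.0733). St6galnac5, a sialyltransferase of gangliosides, had a log2 fold change of 0.54 and Snx14, a sorting nexin, one of 0.40. Chd2, a chromatin remodeller, had 0.46, Gulp1, an adaptor for engulfment, 0.87, and Rbm12b2, a predicted RNA-binding protein, 0.59. All 7 had groups that were apart, with adjusted p-values between 0.0725 and 0.105. Their knock-in pair log2 fold changes were positive and smaller, from 0.05 for Snx14 to 0.41 for Gulp1.

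The genes with the next lowest p on the lower side also missed the threshold. Tmem163, a zinc transporter, measured 2.74, 3.19 and 3.30 CPM in SUMO-KO, against 16.2, 10.5 and 6.41 CPM in WT (log2 fold change -1.83, adjusted p = 0.0533). Necab3, a calcium-binding protein, measured 4.42, 7.08 and 5.23 CPM in SUMO-KO, against 20.4, 20.9 and 9.76 CPM in WT (log2 fold change -1.61, adjusted p = 0.0533). In both, WT 3 was the nearest to SUMO-KO. Adra1b, an adrenergic receptor, and Arhgap25, a GTPase-activating protein, had log2 fold changes of -1.59 and -1.51, with groups apart. Hs3st4, a heparan sulfate sulfotransferase, measured 30.4, 32.2 and 43.8 CPM in SUMO-KO, against 62.5, 63.0 and 54.6 CPM in WT (log2 fold change -0.75, adjusted p = 0.0608). Rlbp1, a retinaldehyde-binding protein of glia, measured 7.37, 8.18 and 8.31 CPM in SUMO-KO, against 13.8, 14.2 and 12 CPM in WT (log2 fold change -0.74, adjusted p = 0.0677). Within WT, Hs3st4 and Rlbp1 varied little. For Hs3st4, Adra1b, Arhgap25 and Necab3, each WT library exceeded every library of the other genotypes, knock-in ones included. Hs3st4, for example, had a mean of 28.1 CPM among Q175HD/SUMO-KO libraries and 32.2 CPM among Q175HD libraries. Tmem163 and Rlbp1 did not share this pattern. The Q175HD mean was 7.30 CPM for Tmem163, above WT 3, and 13.95 CPM for Rlbp1, above the WT mean of 13.35 CPM. In the knock-in pair Rlbp1 had a log2 fold change of -0.32 (unadjusted p = 0.0235).

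Striatal projection neuron genes gave no call. Of 42 tested, 0 were called, and the median log2 fold change was 0.04. At an unadjusted p under 0.05, 6 were higher, or 14.3%, and 0 lower, beside 7.44% and 6.02% over all genes tested. Among the 6 were Ryr1, with a log2 fold change of 0.36 and groups apart, and Ryr3, with 0.60 and overlapping groups. Without SUMO-KO 3, 4 members were called higher and 1 lower. That fit called 4.3% of all genes higher and 3.52% lower. The dopamine receptor Drd1 measured 318.4, 337.6 and 352.5 CPM in SUMO-KO, against 255.2, 280.5 and 330.6 CPM in WT (log2 fold change 0.22, SE 0.14). The groups overlapped. Drd2 had a log2 fold change of 0.08 (SE 0.18), the adenosine receptor Adora2a -0.14 (SE 0.23), and Ppp1r1b, which encodes DARPP-32, -0.10 (SE 0.20). Pde10a, the phosphodiesterase of these neurons, measured 2145, 2181 and 2241 CPM in SUMO-KO, against 1909, 1850 and 2055 CPM in WT (log2 fold change 0.18, adjusted p = 0.592). Its groups were apart, by a small margin.

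Nearly all genes of cholesterol and fatty acid synthesis had a lower mean in SUMO-KO, though none passed the test. Of 31 tested, 0 were called and 30 had a negative log2 fold change, beside 45.9% of all genes tested. At an unadjusted p under 0.05, 15 were lower, or 48.4%, and 0 higher, beside 6.02% and 7.44% over all genes tested. In 13 all SUMO-KO libraries lay below all WT libraries, as they did in 6.54% of all genes tested. The median log2 fold change was -0.23 and stayed between -0.21 and -0.29 in the other fits tried. The mean of the list per library, in log2 CPM minus the WT mean, was -0.27, -0.29 and -0.26 in SUMO-KO, against 0.02, 0.03 and -0.06 in WT. By this mean SUMO-KO 3 was level with SUMO-KO 1 and 2. The summed level, which the most abundant genes set, was 2935, 3165 and 3652 CPM in SUMO-KO, against 3954, 3722 and 3994 CPM in WT, with SUMO-KO 3 nearest to WT. Markers of other cell types leaned the same way: all 22 myelinating oligodendrocyte genes and 19 of 21 endothelial cell and pericyte genes had negative log2 fold changes. The oligodendrocyte list summed to 6108, 8907 and 8646 CPM in SUMO-KO, against 9549, 8942 and 9269 CPM in WT. Endothelial and pericyte genes summed to 439.9, 461.7 and 521.1 CPM in SUMO-KO, against 506.1, 522.4 and 535.5 CPM in WT. Their part in the levels of this list was not tested.

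Named members of this list were chosen after their values were seen. Hsd17b7, a late enzyme of the pathway, measured 12.9, 11.6 and 15.5 CPM in SUMO-KO, against 19.1, 20.3 and 19.8 CPM in WT (log2 fold change -0.56, SE 0.12, adjusted p = 0.134). The groups were apart, with WT close together. Hmgcs1, which makes HMG-CoA, measured 121.3, 134.4 and 127.5 CPM in SUMO-KO, against 185.7, 188.5 and 156.2 CPM in WT (log2 fold change -0.47, adjusted p = 0.191). Squalene epoxidase, Sqle, measured 27.5, 26.7 and 25.7 CPM in SUMO-KO, against 45.0, 39.6 and 31.3 CPM in WT (log2 fold change -0.54, adjusted p = 0.173). Srebf2, the transcription factor of the pathway, had a log2 fold change of -0.36. All 4 genes had groups that were apart. In the authors' deposited DESeq2 table, Hsd17b7, Hmgcs1 and Sqle had an adjusted p under 0.05, where 1.13% of 16201 genes were lower at that limit. This was not particular to the list. DESeq2 also called 10 genes lower in the cortical excitatory neuron list and 5 in the presynaptic release list. In the knock-in pair the list median was -0.15.

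Most genes of presynaptic release also had lower values in SUMO-KO. Of 29 tested, 1 fell (Cplx3), and the median log2 fold change was -0.33. At an unadjusted p under 0.05, 17 were lower, or 58.6%, and 2 higher, beside 6.02% and 7.44% over all genes tested. Stx1a, a syntaxin of the fusion complex, measured 24.9, 19.1 and 23.7 CPM in SUMO-KO, against 62.7, 51.6 and 32.3 CPM in WT (log2 fold change -1.11, adjusted p = 0.111). Rph3a, a rabphilin that binds vesicles, measured 97.2, 100.7 and 142.7 CPM in SUMO-KO, against 287.3, 199.5 and 173.1 CPM in WT (log2 fold change -0.95, adjusted p = 0.114). The groups were apart, and WT 1 was highest in both. The calcium sensor Syt1 had a log2 fold change of -0.33, Snap25 of the fusion complex -0.31, and the vesicle protein Syn1 -0.62.

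The mean of this list per library was -0.48, -0.48 and -0.18 in SUMO-KO, against 0.11, -0.06 and -0.05 in WT, so SUMO-KO 3 was nearest to WT. Without SUMO-KO 3, 16 members were called lower and Syn3 higher, in a fit that called 3.52% of all genes lower and 4.3% higher. The median was -0.18 with the cortical marker mean as a covariate and -0.35 without WT 1 and WT 2. In the knock-in pair the median was -0.10.

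Immediate early and activity-induced genes gave no call, with more of them lower than higher. Of 33 tested, 0 were called, and the median was -0.30. At an unadjusted p under 0.05, 9 were lower, or 27.3%, and 0 higher, beside 6.02% and 7.44% over all genes tested. Nr4a2, an orphan nuclear receptor, measured 2.74, 1.80 and 3.80 CPM in SUMO-KO, against 68.6, 41.1 and 6.86 CPM in WT (log2 fold change -3.77, adjusted p = 0.183). WT 1 was highest and WT 3 lowest within WT, the order of the cortical markers. Dusp6, a phosphatase of ERK, measured 29.2, 30.3 and 28.4 CPM in SUMO-KO, against 51.3, 42.3 and 40.4 CPM in WT (log2 fold change -0.61, adjusted p = 0.137). Arc, a synaptic capsid-like protein, measured 108.5, 77.1 and 71.9 CPM in SUMO-KO, against 178.5, 151.5 and 138.8 CPM in WT (log2 fold change -0.87, adjusted p = 0.267). Fos had a log2 fold change of -0.69 and Egr1 one of -0.34, both with overlapping groups. The list median in the knock-in pair was 0.21. Without WT 1 and WT 2 the median in SUMO-KO against WT was -0.10.

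Among 38 glutamate and GABA receptor genes, 0 were called, and the median was 0.03. At an unadjusted p under 0.05, 6 were higher (15.8%) and 5 lower (13.2%), beside 7.44% and 6.02% over all genes tested. Gria2, an AMPA receptor subunit, measured 1053, 999.2 and 928.5 CPM in SUMO-KO, against 712.8, 830.9 and 787.0 CPM in WT (log2 fold change 0.35, adjusted p = 0.194). The kainate receptor Grik3 had a log2 fold change of -0.59 and the metabotropic GABA receptor Gabbr2 one of -0.89, both with groups apart and with WT 1 highest.

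Of 19 circadian clock genes 0 were called. At an unadjusted p under 0.05, 3 were higher and 3 lower, or 15.8% each, beside 7.44% and 6.02% over all genes tested. Arntl, which encodes the activator BMAL1, measured 47.0, 57.2 and 49.6 CPM in SUMO-KO, against 41.4, 39.1 and 28.5 CPM in WT (log2 fold change 0.50, adjusted p = 0.182). Ciart, a repressor that peaks at another time of day, measured 10.9, 8.08 and 10.6 CPM in SUMO-KO, against 13.1, 14.7 and 22.1 CPM in WT (log2 fold change -0.75, adjusted p = 0.194). In the knock-in pair the log2 fold changes were 0.39 and -0.73. The time of day of collection is not given in the labels, and its part in these levels was not tested.

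The other lists held no call. At an unadjusted p under 0.05, 6.02% of all genes tested were lower and 7.44% higher. Interferon response genes had a median of -0.31, with 4 of 39 lower at an unadjusted p under 0.05, 0 higher and 0 called. Striatal interneuron genes had 5 of 18 lower, among them Sst at 50.5, 56.5 and 65.7 CPM in SUMO-KO, against 74.6, 71.6 and 75.1 CPM in WT (log2 fold change -0.36, adjusted p = 0.213). All 22 myelinating oligodendrocyte genes had negative log2 fold changes, with a median of -0.21 that was -0.04 without SUMO-KO 1, and 0 were called. Nuclear-encoded oxidative phosphorylation genes had 6 of 73 lower, with a median of -0.10, autophagy genes 3 higher and 2 lower of 44, and heat shock and chaperone genes 1 and 1 of 34. Astrocyte, microglia, oligodendrocyte precursor, and endothelial cell and pericyte lists held 0 calls each, with medians of -0.09, -0.07, -0.01 and -0.19. Choroid plexus genes, which enter from the ventricle wall, summed to 706.7, 3719 and 369.6 CPM in SUMO-KO, against 6344, 3200 and 404.1 CPM in WT. That list varied within both genotypes, and its median of -1.26 turned to 2.98 without WT 1 and WT 2.

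**Figure D4:**
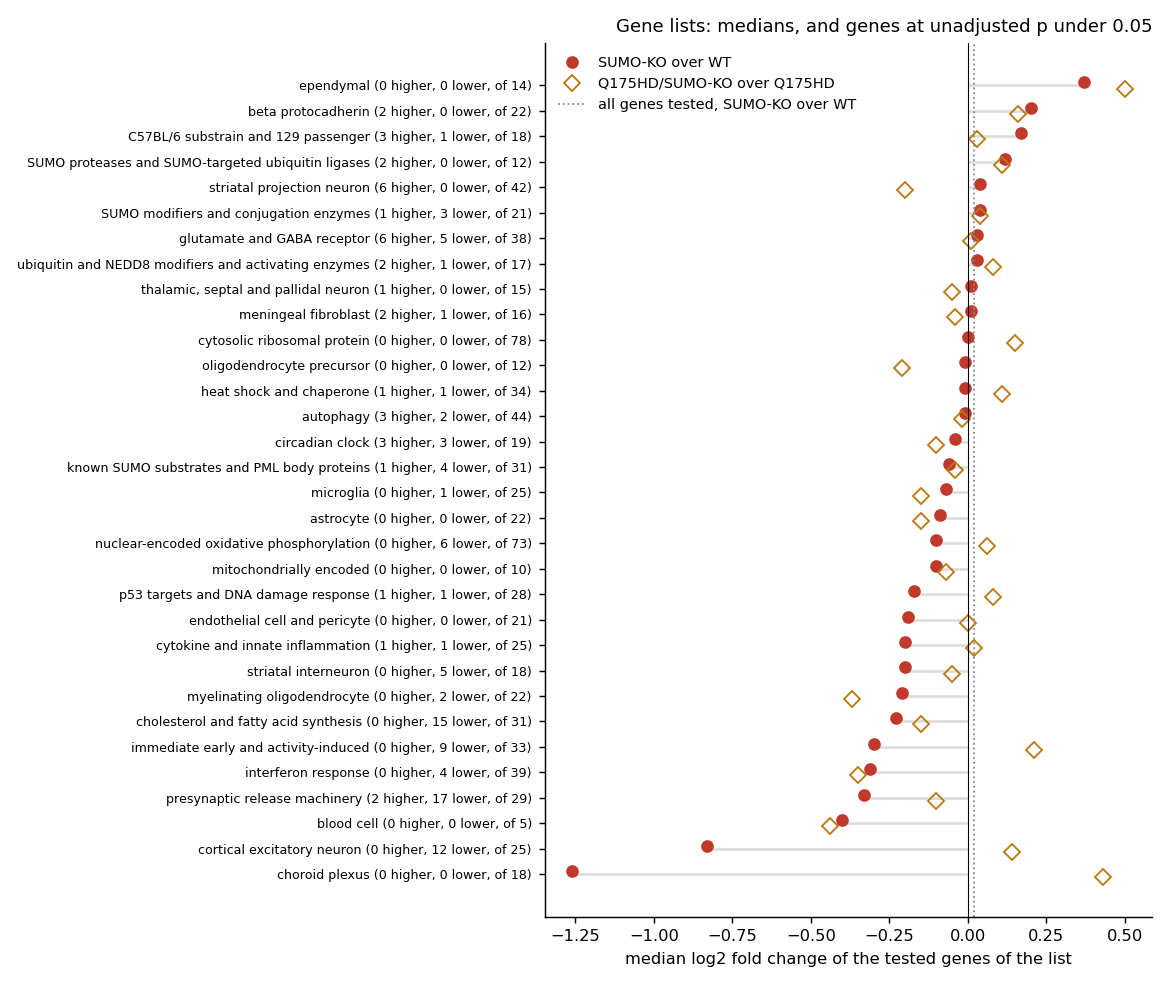
Median log2 fold change of the tested genes of each list for SUMO-KO over WT (filled circles) and for Q175HD/SUMO-KO over Q175HD (open diamonds), with the number of genes higher and lower in SUMO-KO at an unadjusted p under 0.05. Cholesterol and fatty acid synthesis lies at -0.23 and -0.15, and the cortical excitatory neuron list at -0.83 and 0.14.

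The comparison was set beside that of Q175HD/SUMO-KO and Q175HD, with which it shares no library. Between Q175HD/SUMO-KO and Q175HD 6 genes were called, or 0.0337%, and Gm28411 was called in both comparisons. Unadjusted p-values under 0.05 in both comparisons were found for 206 genes, of which 187 had the same sign and 19 the opposite. Those limits were passed by 13.5% of genes here and by 5.28% in the knock-in pair. The 187 are 7.81% of the 2395 genes past that limit here and 19.9% of those past it in the knock-in.

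In the test of the difference between the 2 effects, 0 genes were called by edgeR (0.0%), 770 had an unadjusted p under 0.05, or 4.33%, and DESeq2 called 32. Without WT 3 edgeR called 34, without SUMO-KO 1 it called 2 and without WT 2 it called 1.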

How the data were processed

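Total RNA from mouse striatum was isolated with the miRNeasy Mini Kit, depleted of ribosomal RNA and made into libraries with a directional NEBNext Ultra II kit, per the labels' protocols. Trimming, alignment and testing tools listed in the submitters' processing notes are DESeq2, STAR 2.5.2a, Bowtie 1.1.2 and cutadapt 2.10, with mm10 and GRCm38 as builds. Neither the counter nor its strand setting is named there. The deposited counts are raw whole numbers of reads for each Ensembl identifier, with 0 columns of other series. The deposited TPM values were used for Sumo2 and Sumo3 only. The authors' deposited comparison table gives log2 fold changes and p-values per gene, as DESeq2 output per the file headers. Of the identifiers, 53360 were found in GENCODE M21, as were 17772 of those tested. Because 112 symbols occur more than once, identifiers were used as keys.

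Raw counts were fitted with edgeR 4.0.16 in R 4.3.3: filterByExpr (minimum count 10, minimum total 15), TMM scaling and a robust quasi-likelihood model of 4 group means over all 12 libraries (common BCV 0.171). A call is an adjusted p under 0.05 after Benjamini-Hochberg correction. SE is the log2 fold change divided by the square root of F. CPM uses TMM-scaled library sizes, and log2 CPM a prior count of 2. A group with 0 reads was bounded with 3 counts over the group (confidence level 0.95), which covers counting error only. The fit was also run on simulated counts with the same spread for every gene, unlike these libraries. That run checks the code and not the calls given here.

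Genes named are the SUMO genes and Htt, the 12 largest rises and falls among called genes averaging at least 50 reads, leaving out predicted genes, pseudogenes, Y-linked genes, Tsix and Xist. Called genes in a window of chromosome 1 are named too, as are called members of each list, up to 4 per direction. Where calls were few, genes of the lowest p up to 10 per direction and the 3 most abundant members of a list were eligible as values. Others, including most list members given as values, the chromosome 1 genes and the neighbours of Rian, were chosen after their values were seen. Some genes and the results that need them are not reported here. The members and lists were chosen with earlier results of these data known. Alternatives were median-ratio scaling, no filter, a mean count of at least 50, DESeq2 1.42.0, the 6 libraries alone, a replicate block, no robust estimation, a cortical marker covariate, and leaving out libraries.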

Additional observations from a re-analysis of the deposited data

Results flagged for a closer look

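1700122D07Rik, which was too shallow to be tested, had 18 reads over the SUMO-KO libraries and 0 over the WT libraries, above the limit that a count of 0 allows. It had 17 reads over the Q175HD/SUMO-KO libraries and 0 over the Q175HD libraries.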

How the results depend on the processing

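Median-ratio scaling gave 2 genes raised and 8 lowered. Without a filter there were 22 raised, 97 lowered and 2 for the difference between backgrounds. With a mean count of at least 50 there were 0 raised and 2 lowered. DESeq2 gave 62 raised, 183 lowered and 32 for the difference. The 6 libraries alone and the cortical covariate each gave 0 raised and 0 lowered. The covariate and the smaller fits leave fewer degrees of freedom. Without robust estimation there were 1 raised and 4 lowered, and Rian, Ighm and Gm10635 had adjusted p-values of 0.0512, 0.0554 and 0.0503 (edgeR). The cortical covariate is the mean of the 25 listed genes, so the median of that list under it is near 0 by construction.

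Whether replicate numbers pair the samples is not stated. The log2 CPM of each library was taken as a deviation from its group mean. These deviations correlated at -0.228, 0.404 and 0.252 between same-numbered SUMO-KO and WT libraries. For differently numbered libraries the values lay between -0.506 and 0.287. With so few libraries per group, they cannot show whether the numbers pair the samples. With the replicate block 1 gene was raised and 5 lowered, and Rian, Ighm and Myl4 had adjusted p-values of 0.0531, 0.0608 and 0.0542 (edgeR).

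Leaving out 1 library gave 0 to 782 genes raised, 0 to 640 lowered and 0 to 34 for the difference. The highest counts came without SUMO-KO 3, or without WT 3 for the difference. Of 1422 genes called without SUMO-KO 3, 1409 were tested with it, and in 873 of these, or 62%, SUMO-KO 3 lay on the same side of the WT mean. Among the higher genes SUMO-KO 1 and 2 averaged a median of 0.835 above WT on the log2 scale, and SUMO-KO 3 0.0401. Among the lower genes the medians were -0.496 and -0.0667. The cause was not tested. No called value described here changed sign in any alternative run. At this depth, genes with a few reads per library, such as 1700122D07Rik, could not be tested.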
